A study of Mus musculus with 8 samples.

Results

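Expression of the genes for osteocalcin and for the enzymes and factors around it was examined in mouse microvascular endothelial cells with and without LRP1, an endocytic receptor related to that for low-density lipoprotein. The genes were 9 of the 22520 in the deposited table, chosen by name and matched by Ensembl identifier. They were the osteocalcin genes Bglap and Bglap2, the related Gla protein gene Mgp, the processing genes Ggcx, Vkorc1 and Furin, and the osteogenic genes Runx2, Sp7 and Alpl. These genes were compared between 4 LRP1 KO and 4 wild-type (WT) libraries, to ask which of them differed between the groups. All mice were C57BL/6 at postnatal day 14, and each library was labelled as a mixture of heart, liver and lung microvascular cells. The study's text keeps liver cells apart from those of heart and lung, so which cells each library held is not settled by the sources used here, and values are given as labelled. By the study's methods both groups carried floxed alleles (LRP1 f/f). WT mice were littermates without the Cre transgene (Cdh5-CreER-/-), and LRP1 KO mice carried Cdh5-CreER+/-, a Cre recombinase that tamoxifen activates and that the promoter of the endothelial cadherin gene Cdh5 drives. PECAM-1 beads were used to select the cells. The labels do not say whether the libraries of a group came from separate animals or cultures, so p-values measure the spread between these libraries, which may be technical in part.

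Osteocalcin is a small secreted protein best known from osteoblasts, where it binds mineral in bone, and it also circulates and acts as a hormone on metabolism. It is made as a precursor. In the secretory pathway the carboxylase GGCX turns glutamate residues into γ-carboxyglutamate (Gla) with reduced vitamin K, which VKORC1 regenerates, and the protease furin removes the propeptide. RUNX2 and SP7 (osterix) drive the osteoblast programme, ALPL is the phosphatase that frees phosphate for mineral, and matrix Gla protein (MGP) keeps vessel walls free of mineral.

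The mouse has a cluster of osteocalcin genes on the minus strand of chromosome 3 (GRCm38). Bglap lies at chr3:88383501-88384464 and Bglap2 at chr3:88377736-88378699. Each was annotated with 4 exons and a coding sequence of 288 bases. The coding sequences are shown because their likeness decides how far the genes can be told apart in short reads. Capitals mark the bases at which Bglap and Bglap2 differ (GENCODE M21 transcripts, 5′ to 3′).
Bglap: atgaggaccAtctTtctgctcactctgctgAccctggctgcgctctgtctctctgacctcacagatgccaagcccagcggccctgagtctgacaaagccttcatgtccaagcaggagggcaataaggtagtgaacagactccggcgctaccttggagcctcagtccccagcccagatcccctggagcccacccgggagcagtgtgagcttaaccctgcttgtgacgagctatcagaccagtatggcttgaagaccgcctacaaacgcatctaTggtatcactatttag
Bglap2: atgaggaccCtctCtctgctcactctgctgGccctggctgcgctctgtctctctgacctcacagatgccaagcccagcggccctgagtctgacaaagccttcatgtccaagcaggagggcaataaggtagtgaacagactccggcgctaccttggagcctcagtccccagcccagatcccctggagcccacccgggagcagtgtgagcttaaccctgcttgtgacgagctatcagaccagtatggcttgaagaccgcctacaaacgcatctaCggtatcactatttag
Bglap and Bglap2 differed at 4 bases (98.6% identical) and shared an unbroken run of 241 bases. Over the whole transcripts, 69.2% of the stretches of 50 bases in Bglap2 also occurred in Bglap. Values of Bglap and Bglap2 were therefore also added together, since reads from one can be assigned to the other, and each single value carries that uncertainty.

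Values were FPKM (fragments scaled to transcript length and to the library's total), a unit inferred from the values, and the authors had quantile normalized them, so that every library had nearly the same set of values. Column sums ran from 503571 to 504112 and the depth of the libraries is unknown. The 20 housekeeping genes examined were above 0 in every library. Changes are differences of log2(FPKM + 1), LRP1 KO minus WT, which understate the change of genes with low values. Genes with at least 1 FPKM in at least 4 libraries were tested with limma (11389 genes). A gene is said to have passed at an adjusted p under 0.05. Lrp1 itself had a mean of 120.1 ± 16.0 FPKM in WT and 4.79 ± 2.20 in LRP1 KO (SD, n = 4 each), and no LRP1 KO library exceeded 7.72 FPKM, against at least 103 in WT. Y-linked genes were near 0 in 1 library of each group, WT 4 and LRP1 KO 2, so the libraries of a group did not all come from the same animals or pool.

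The make-up of the libraries differed between and within groups. Endothelial markers were present but low beside those of fibroblasts. In WT the 16 endothelial genes summed to 172 to 187 FPKM, whereas 9 fibroblast genes summed to 1270 to 2040. The endothelial sum was 621, 394, 459 and 179 FPKM in LRP1 KO libraries 1 to 4, so library 4 sat at the WT level and the others above it. Macrophage markers (14 genes) summed to 90.5 to 116 FPKM in WT and to 395, 587, 242 and 540 FPKM in LRP1 KO. Mural markers (11 genes) were also higher, at 670 to 836 FPKM in WT and 1040 to 1627 in LRP1 KO. Of the tested markers, 9 of 11 macrophage, 4 of 8 mural and 1 of 15 endothelial genes passed upward, where 6.27% of all tested genes did. Estimates of the 8 tested fibroblast markers were all below 0 (median -0.36). Of these 2 passed, where 7.31% of all tested genes passed downward. The fibroblast sums of 1043 to 1657 FPKM in LRP1 KO overlapped those of WT. Lung epithelium markers summed to 2.05 to 3.65 FPKM in WT and were lower in every LRP1 KO library, down to 1.34 FPKM. In bulk libraries, more cells of a type and more RNA per cell cannot be told apart, and a change cannot be assigned to endothelial or other cells.

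Of the 9 genes, 7 were tested and 2 passed, Bglap and Bglap2, both upward. Among all tested genes 13.6% passed, 6.27% upward and 7.31% downward. Both genes were also called changed, with a log2 change of at least 1, as were 1.62% of all tested genes (1.12% upward, 0.5% downward). Bglap and Bglap2 reached the level required for testing only through the LRP1 KO libraries, so they could hardly enter the test without a difference. With a score of the macrophage markers in the model neither passed (limma adjusted p = 0.0888 and 0.0804), where 9 of all 11389 tested genes did. The other 5 tested genes did not pass, and Sp7 and Alpl were too low to be tested.

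Bglap rose from less than 1 FPKM. WT libraries 1 to 4 held 0.383, 0, 0.271 and 0.243 FPKM of Bglap, and LRP1 KO libraries 1 to 4 held 2.07, 4.25, 3.62 and 3.49. The groups were far apart, and the lowest LRP1 KO library was 5.40 times the highest WT library. Such a separation of the groups upward was seen for 8.84% of tested genes. The mean went from 0.224 ± 0.161 to 3.36 ± 0.920 FPKM (SD, n = 4 each), a log2 change of 1.81 (SE 0.17, 95% interval 1.43 to 2.20, limma adjusted p = 0.000613). By size of rise Bglap ranked 40 among the 11389 tested genes. Its level stayed modest: in LRP1 KO libraries 54.4% to 60.9% of the genes in the table lay below it.

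Bglap2, the neighbouring copy, moved alike. Its values were 0.152, 0, 0.292 and 0.108 FPKM in the WT libraries and 2.06, 3.41, 4.52 and 4.01 FPKM in those of LRP1 KO. Again no library of one group came near the other, and LRP1 KO library 1 was the lowest of its group for both genes. The log2 change was 1.96 (SE 0.18, 95% interval 1.56 to 2.35, limma adjusted p = 0.000492).

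Summed, Bglap and Bglap2 stood at 0.535, 0, 0.562 and 0.351 FPKM in the WT libraries and at 4.13, 7.67, 8.13 and 7.50 FPKM in those of LRP1 KO. Every LRP1 KO library was at least 7.35 times the highest WT library. The sum rose by 2.51 on the log2 scale (SE 0.21, 95% interval 2.05 to 2.98, limma adjusted p = 0.000418), and by 4.18 with a pseudocount of 0.1 in place of 1. By exact permutation of the libraries (two-sided) p was 0.0286, which is the lowest that 4 against 4 libraries allow. Bglap made up 50.1%, 55.5%, 44.5% and 46.5% of the sum in LRP1 KO libraries 1 to 4, so the copies contributed about equally as far as the assignment of reads can show.

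**Figure D1:**
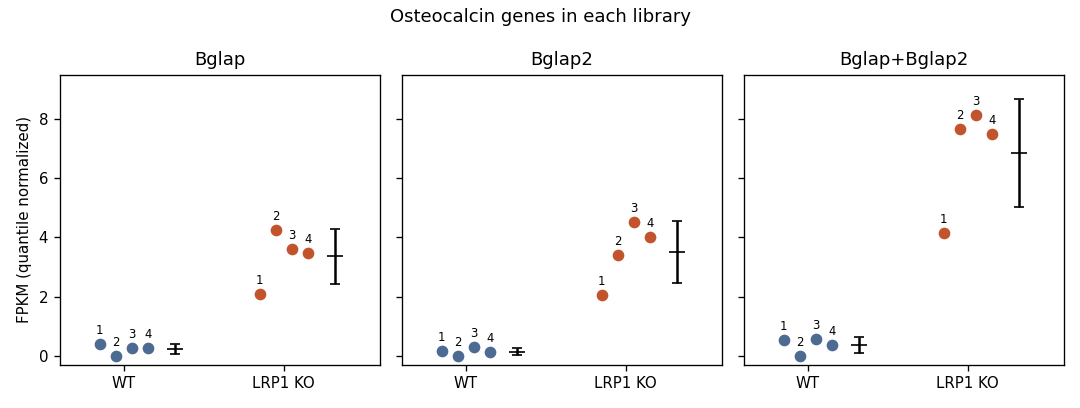
FPKM (linear axis) of Bglap, Bglap2 and the sum of Bglap and Bglap2 in each library; numbers are library numbers, and the black bar is the mean ± SD of 4 libraries. Bglap and Bglap2 were between 2.06 and 4.52 FPKM in LRP1 KO and below 0.4 in WT.

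Marker sums moved with osteocalcin between the groups. The macrophage sum was higher in every LRP1 KO library than in any WT library (at least 242 against at most 116 FPKM), and the endothelial sum was higher in all but library 4. The mural sum was also higher in every LRP1 KO library (at least 1040 against at most 836 FPKM), and no mural score was fitted. In LRP1 KO libraries 1 to 4 the osteocalcin sums of 4.13, 7.67, 8.13 and 7.50 FPKM stood beside macrophage sums of 395, 587, 242 and 540 FPKM and endothelial sums of 621, 394, 459 and 179 FPKM. With the macrophage score in the model the change of the osteocalcin sum was 2.58 (SE 0.53, limma adjusted p = 0.0781), and it no longer passed. In that model 9 genes of the whole table passed, against 1547 with group alone. The macrophage sums of the groups did not overlap, so this model can hardly separate the score from the group. With the endothelial score it was 2.79 (adjusted p = 0.00403). The part of the cell make-up in the rise was not tested. Markers of osteoblasts and osteocytes were near 0: the 6 genes summed to at most 0.358 FPKM in WT and 0.588 in LRP1 KO, and Ibsp, the gene for bone sialoprotein, was at 0 in all 8 libraries. Chondrocyte markers did not exceed a sum of 0.358 FPKM. Platelet markers summed to 1.93 to 2.53 FPKM in WT and to 2.29, 4.89, 2.90 and 3.27 FPKM in LRP1 KO libraries 1 to 4.

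No change passed among the neighbours of the cluster. Within 100 kb, 15 other genes were annotated, 11 were in the table and 9 were tested, of which 0 passed in limma (4 at an unadjusted p under 0.05, as were 33.7% of all tested genes) and log2 changes ran from -0.35 to 0.35. Pmf1, the nearest gene upstream of Bglap, went from 11.2 to 9.90 FPKM (log2 change -0.15, adjusted p = 0.296). Paqr6, on the other side of the cluster, had the lowest estimate (-0.35, adjusted p = 0.0708), and Tsacc the highest (0.35, adjusted p = 0.0556). Cct3, Smg5, Glmp, Tmem79, Slc25a44 and Sema4a lay between -0.23 and 0.12. The groups did not overlap for 5 of the 9 neighbours, higher for Tsacc and Smg5 and lower for Glmp, Tmem79 and Paqr6, against 19.6% of all tested genes.

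**Figure D2:**
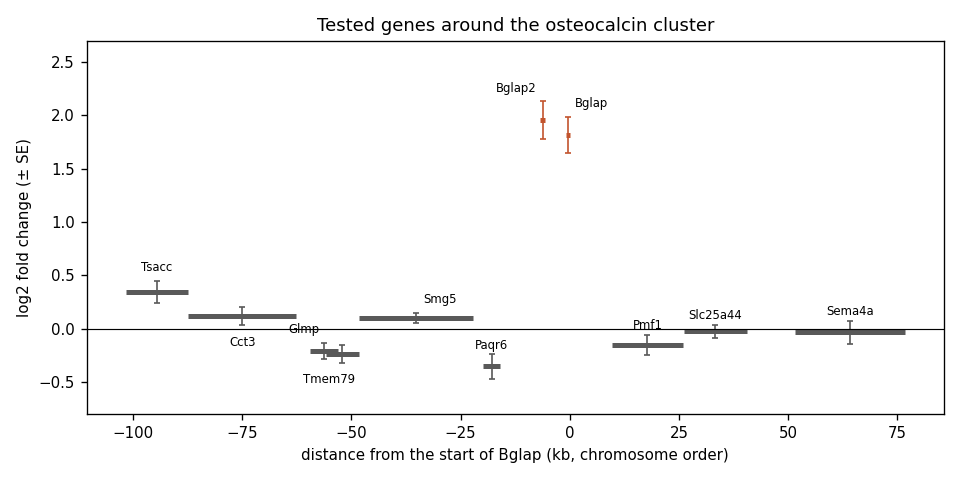
Log2 fold change (± SE, LRP1 KO minus WT) of each tested gene around the osteocalcin cluster against its distance from the start of Bglap in kb; horizontal bars span the gene bodies and red marks genes that passed. Bglap and Bglap2 stand near 2, and the 9 tested neighbours lie between -0.35 and 0.35.

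The region upstream of Bglap is shown because Bglap rose. No window was available for Bglap2, so the copies could not be compared. It was taken from RefSeq (GRCm38.p6, chr3:88384467-88384716, minus strand). Capitals mark the letters of a RUNX core (ACCACA), an osteoblast element OSE1 (TTACATCA) and a TATA box (TATAAA), searched on both strands with TGTTTAC, the forkhead (FoxO) core.
Bglap: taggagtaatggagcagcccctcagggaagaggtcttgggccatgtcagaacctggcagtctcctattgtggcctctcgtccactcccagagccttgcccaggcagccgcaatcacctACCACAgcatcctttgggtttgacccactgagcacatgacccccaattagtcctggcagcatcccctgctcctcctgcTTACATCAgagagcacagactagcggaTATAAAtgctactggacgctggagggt
Counted back from the downstream end of this window, the RUNX letters began at base 132. OSE1 began at base 54 and the TATA letters at base 27, and none of them overlapped. The window ends just upstream of the start given above for Bglap, chr3:88384464. TGTTTAC did not occur in this window. Among 32851 promoter windows of the same length, 14.0% held ACCACA, 0.965% TTACATCA, 12.4% TATAAA and 3.17% TGTTTAC. Of the other genes examined, Runx2 had ACCACA in its window, Furin TATAAA and Vkorc1 TGTTTAC, and none of these genes passed. These are matches of letters only.

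Mgp (chr6:136872435-136875823) was the most abundant transcript in WT, and its level there could not be measured. Quantile normalization gave the top gene of each library the same value, 7793 FPKM, and Mgp held that place in WT libraries 1 to 4. In LRP1 KO it was listed at 2075, 5151, 2866 and 7793 FPKM, with ranks of 17, 4, 12 and 1. Mgp was thus not the top gene in 3 of 4 LRP1 KO libraries, where the mitochondrial gene mt-Co1 was, while library 4 was like WT. Against this fixed WT value, which has no spread, the listed values differed by -0.99 on the log2 scale and did not pass (limma adjusted p = 0.0847), and by -1.32 without LRP1 KO library 4 (adjusted p = 0.00682). Neither is a measured size of change, since the level and spread of Mgp in WT are unknown. The order of Mgp in LRP1 KO was the reverse of that of the endothelial sums, which were 621, 394, 459 and 179 FPKM, and with the endothelial score in the model the same difference was 0.00618 (adjusted p = 0.995). With the macrophage score it was -2.63 (adjusted p = 0.0866).

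Vkorc1 (chr7:127893063-127895617), which recycles vitamin K, was abundant in both groups. It was matched by Ensembl identifier, since the row labelled Vkorc1 carries the identifier of the overlapping gene Gm21974 and holds at most 0.00566 FPKM. Vkorc1 was at 99.1, 94.3, 90.6 and 92.5 FPKM in the WT libraries and at 76.3, 85.7, 76.8 and 89.9 FPKM in those of LRP1 KO. All LRP1 KO libraries were below all WT libraries, library 4 only just, a separation that 10.7% of tested genes showed downward and 19.6% in either direction. The LRP1 KO mean was 87.3% of the WT mean. The log2 change of -0.20 (SE 0.07, 95% interval -0.34 to -0.05) did not pass over all genes (limma adjusted p = 0.0735, exact permutation p = 0.0286). Without LRP1 KO library 4 it was -0.24 with an adjusted p of 0.0211, and with a marker score in the model it was -0.07 (endothelial, adjusted p = 0.808) or -0.41 (macrophage, adjusted p = 0.161).

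Ggcx (chr6:72414308-72430712), the γ-carboxylase itself, did not differ beyond the spread of the libraries. Its values were 12.2, 11.3, 12.8 and 13.1 FPKM in the WT libraries and 11.4, 13.2, 13.0 and 12.3 FPKM in those of LRP1 KO. The groups overlapped fully, and the log2 change was 0.01 (SE 0.07, limma adjusted p = 0.921). Its 95% interval, -0.14 to 0.17 in this model, was -0.39 to 0.44 with the macrophage score in it.

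Furin (chr7:80388585-80405436), the propeptide protease, was at 26.1, 29.9, 31.6 and 30.2 FPKM in the WT libraries and at 29.6, 28.9, 29.3 and 29.6 FPKM in those of LRP1 KO. The LRP1 KO libraries lay within the range of WT. The 95% interval of the log2 change was -0.14 to 0.14 (limma adjusted p = 0.986).

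**Figure D3:**
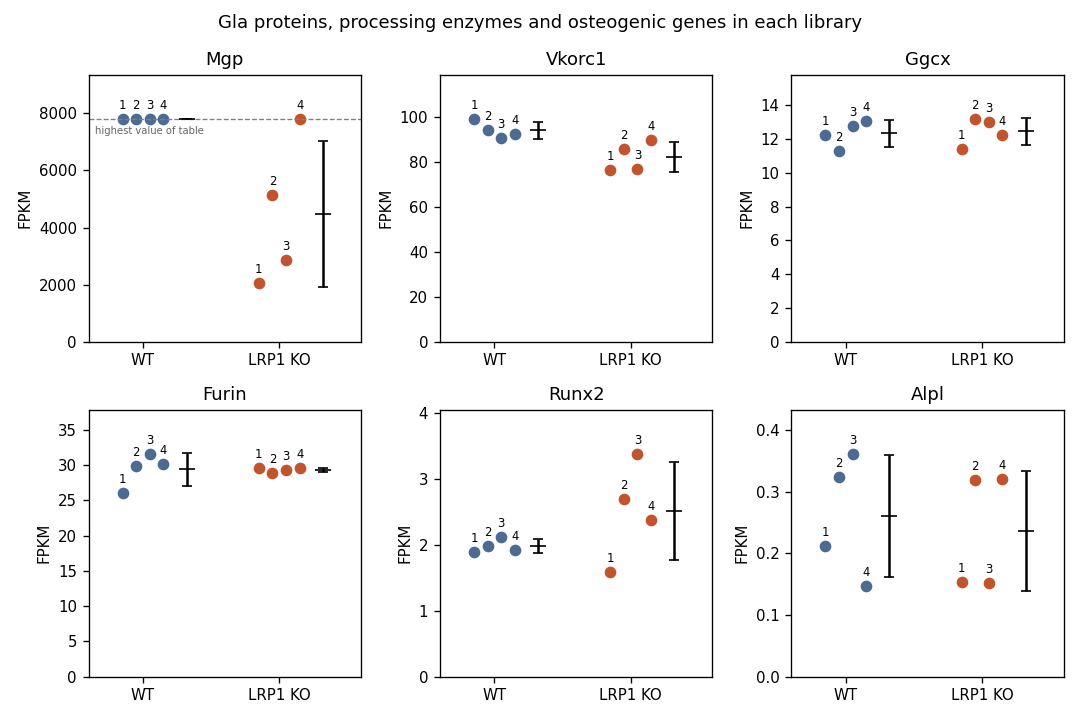
FPKM (linear axes from 0, a scale for each gene) of Mgp, Vkorc1, Ggcx, Furin, Runx2 and Alpl in each library; numbers are library numbers and the black bar is the mean ± SD of 4 libraries. The dashed line in the Mgp panel is the highest value of the table, 7793 FPKM, on which all WT libraries and LRP1 KO library 4 lie; Vkorc1 is the only one of the 6 whose groups do not overlap.

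Of the osteogenic genes, Runx2 (chr17:44495987-44814797) was expressed at a low level in both groups. It stood at 1.89, 1.98, 2.12 and 1.92 FPKM in the WT libraries and at 1.58, 2.69, 3.37 and 2.37 FPKM in those of LRP1 KO. Libraries 2, 3 and 4 of LRP1 KO were above every WT library and library 1 was below, so the groups overlapped. The log2 change was 0.21 (SE 0.14, 95% interval -0.11 to 0.53, limma adjusted p = 0.328). It was 0.10 without LRP1 KO library 3 (adjusted p = 0.679), 0.35 without LRP1 KO library 1 (adjusted p = 0.0953) and 0.42 with the macrophage score in the model (95% interval -0.41 to 1.25, adjusted p = 0.512).

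Sp7 (chr15:102356606-102367182), which acts downstream of Runx2 in osteoblasts, was nearly absent from the table. It was listed at 0 in WT libraries 1 to 3 and in LRP1 KO library 4, and its highest value was 0.00362 FPKM, in WT library 4. Alpl (chr4:137741733-137796384) was at 0.211, 0.323, 0.361 and 0.147 FPKM in the WT libraries and at 0.153, 0.319, 0.151 and 0.321 FPKM in those of LRP1 KO. Its groups overlapped (exact permutation p = 0.686).

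**Figure D4:**
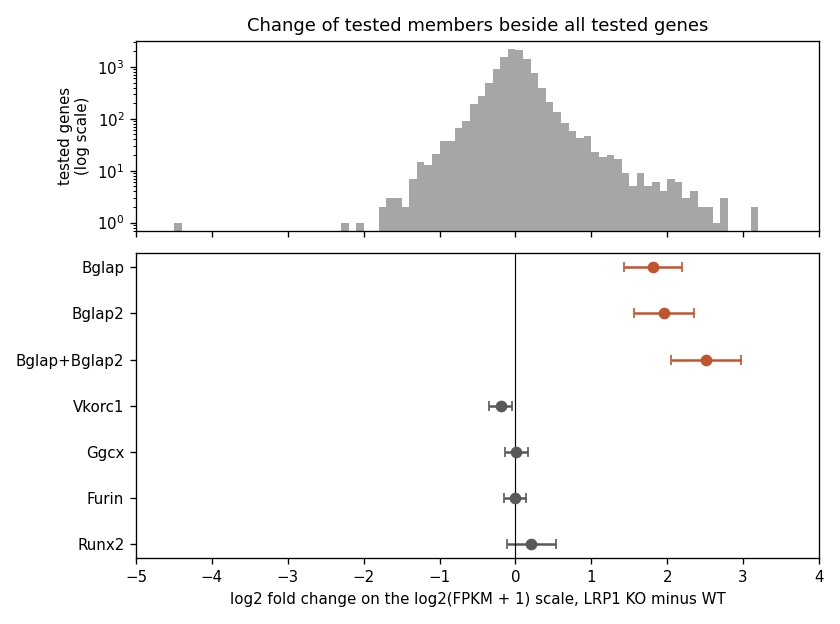
Log2 fold change on the log2(FPKM + 1) scale with its 95% interval for each tested gene other than Mgp, whose WT level is fixed by the normalization, and for the osteocalcin sum (below; red marks adjusted p under 0.05), over a histogram of the changes of all 11389 tested genes (above; log scale). Bglap, Bglap2 and their sum lie in the right tail, at 1.81, 1.96 and 2.51, and the intervals of Ggcx, Furin and Runx2 span 0.

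Related genes were read as lists, against a median log2 change of -0.01 over all tested genes. Among 13 other Gla proteins, 5 were tested and 0 passed in limma (1 at an unadjusted p under 0.05, against 33.7% of all tested genes; median -0.10). Gas6, a vitamin K-dependent ligand of the TAM receptors, had the lowest estimate, with means of 693 ± 139 FPKM in WT and 478 ± 84.4 in LRP1 KO (log2 change -0.53, adjusted p = 0.0531). It passed at -0.64 when LRP1 KO library 4 or WT library 4 was left out (adjusted p = 0.0118 and 0.0388) and was at -1.17 with the macrophage score (adjusted p = 0.0937). Proc and Ucma were at 0 throughout.

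Of 4 other vitamin K cycle genes, all were tested and 1 passed, where 13.6% of all tested genes did (1 at an unadjusted p under 0.05, against 33.7%). Calu, the gene for calumenin, a calcium-binding protein of the secretory pathway that inhibits γ-carboxylation, rose from 296 ± 35.9 to 386 ± 25.5 FPKM (log2 change 0.39, SE 0.09, adjusted p = 0.0268). All its LRP1 KO values, from 351 FPKM, were above all WT values, up to 336 FPKM. The remaining cycle genes, Vkorc1l1, Nqo1 and Aifm2, lay between -0.08 and 0.06 and did not pass.

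Of 7 other proprotein convertases, the family of furin, 4 were tested, 1 rose and 1 fell, where 6.27% of all tested genes rose and 7.31% fell (3 at an unadjusted p under 0.05, against 33.7%). Pcsk5 rose by 0.92 (SE 0.26, adjusted p = 0.0468), with 7.90, 5.18, 5.77 and 2.19 FPKM in LRP1 KO against 1.84 to 2.31 in WT, so that library 4 lay at the WT level. Pcsk6 fell from 35.7 to 29.2 FPKM (-0.28, SE 0.08, adjusted p = 0.0430).

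Of 14 other osteogenic transcription regulators, 8 were tested and 0 passed in limma (3 at an unadjusted p under 0.05, against 33.7% of all tested genes; median -0.10). Runx1 and Cbfb, a relative and the shared partner of RUNX2, had log2 changes of 0.22 (adjusted p = 0.102) and 0.12. Twist1 and Twist2, which restrain RUNX2, had estimates of -0.27 and -0.29 and did not pass, although Twist1 did without LRP1 KO library 4 (-0.36, adjusted p = 0.0374). Sox9, a regulator of cartilage, had the highest estimate, 0.33 (adjusted p = 0.130), and passed with the replicate block (adjusted p = 0.0493).

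Of 15 bone matrix and osteoblast genes, 8 were tested and 2 rose, where 6.27% of all tested genes did (2 at an unadjusted p under 0.05, against 33.7%). Fgf23, the gene for a phosphate-lowering hormone made mainly by osteocytes, was at 2.18 to 3.80 FPKM in the WT libraries and at 9.15, 10.3, 4.57 and 5.41 FPKM in those of LRP1 KO. The groups did not overlap, and the log2 change was 1.10 (SE 0.23, adjusted p = 0.0201). Tnfrsf11b, the gene for the RANKL decoy osteoprotegerin, rose from 2.33 to 4.54 FPKM (0.71, SE 0.18, adjusted p = 0.0341). Spp1 (osteopontin) and Col1a1 were abundant, at 115 and 499 FPKM in WT, and did not pass. Dmp1, Mepe, Phex and Sost, genes of osteocytes, were below the level for testing, as was Ibsp.

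Of 10 genes of phosphate and pyrophosphate handling, 9 were tested and 1 rose, where 6.27% of all tested genes did (5 at an unadjusted p under 0.05, against 33.7%; median 0.16). Ahsg, the gene for fetuin-A, a circulating inhibitor of mineral growth made mainly by liver, was at 10.1 to 11.1 FPKM in the WT libraries and at 26.6, 27.2, 21.2 and 11.5 FPKM in those of LRP1 KO (log2 change 0.91, SE 0.23, adjusted p = 0.0326). Library 4 was again close to WT. Hepatocyte markers summed to at most 1.44 FPKM in any library. Phospho1, a phosphatase of matrix vesicles, had an estimate of -0.67 (adjusted p = 0.0583). It passed at -1.94 with the macrophage score (adjusted p = 0.0440) and at -0.79 without LRP1 KO library 4 (adjusted p = 0.0212). Without that library 5 genes of the list passed, where 3021 of the 11389 tested genes did, against 1547 with all libraries. They were Ank (0.35, adjusted p = 0.0263), Slc20a1 (0.31, adjusted p = 0.0300), Slc20a2 (-0.20, adjusted p = 0.0399), Ahsg and Phospho1.

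Calls in the lists were gained as well as lost. Without LRP1 KO library 4, where 3021 instead of 1547 genes of the whole table passed, 8 further list genes did (Twist1, Ank, Slc20a1, Gas6, Col1a2, Slc20a2, Phospho1 and Mbtps1). Without WT library 4, Nt5e and Gas6 passed, and with the replicate block Sox9 and Prrg3. The calls of the 6 list genes that passed in the model with group alone changed with the libraries and settings used. Ahsg and Pcsk5 passed without LRP1 KO library 4 (limma adjusted p = 0.000319 and 0.000629) and missed the threshold without any of the other 7 libraries, with adjusted p up to 0.0889 and 0.124. Fgf23 missed it without WT 1, LRP1 KO 1 or LRP1 KO 2 (adjusted p up to 0.0574), and Tnfrsf11b when WT 1, 2 or 4 or LRP1 KO 2 or 3 was left out (up to 0.0982). Calu missed it when WT 1 or 2 or LRP1 KO 1, 2 or 3 was left out (up to 0.0774). Pcsk6 missed it when any WT library or LRP1 KO 1 or 2 was left out (up to 0.113). With no filter on low values all but Fgf23 missed it (adjusted p = 0.0712 for Tnfrsf11b, 0.0681 for Ahsg, 0.0515 for Calu, 0.0910 for Pcsk5 and 0.0644 for Pcsk6). Pcsk6 missed it with size factors (0.0514), Pcsk5 and Pcsk6 without the variance trend (0.0505 and 0.0523), and Pcsk5 with the replicate block (0.0650). With the macrophage or the endothelial score in the model, all 6 missed it, as Bglap and Bglap2 did with the macrophage score (adjusted p = 0.0888 and 0.0804), but the estimates moved differently. With the macrophage score the log2 change of Calu was 0.51, of Tnfrsf11b 0.78, of Ahsg 1.26 and of Pcsk5 1.75, while that of Fgf23 was 0.24 and that of Pcsk6 -0.10. With the endothelial score Pcsk5 was at 0.17 and Ahsg at 0.32, while Fgf23 was at 0.85, Tnfrsf11b at 0.59, Calu at 0.29 and Pcsk6 at -0.28.

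**Figure D5:**
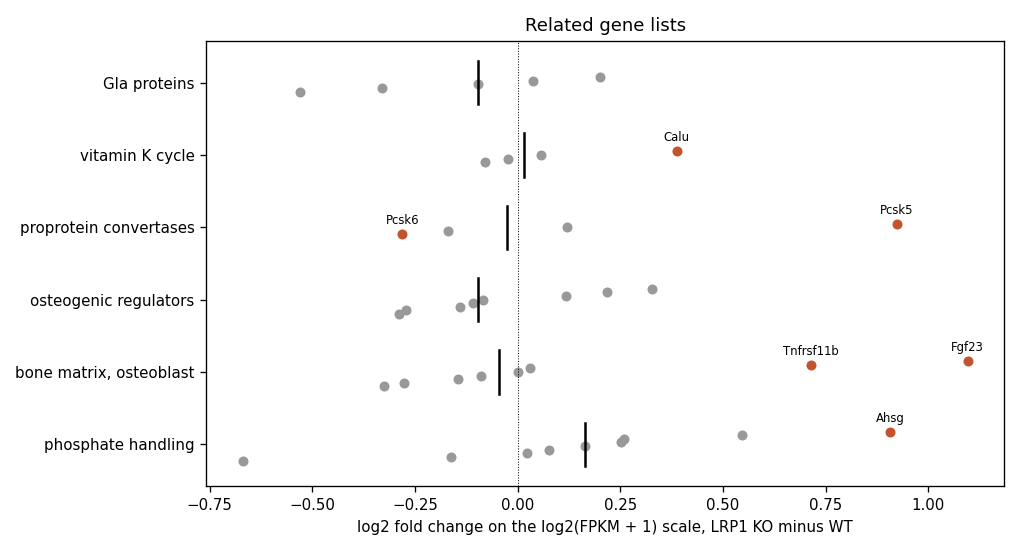
Log2 fold change (LRP1 KO minus WT) of each tested gene of 6 related lists; red marks genes with an adjusted p under 0.05, which are named, and black bars are list medians. The medians lie between -0.10 and 0.16, and 5 of the 6 named genes lie above 0, while Pcsk6 lies below.

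The proposed receptors of osteocalcin, Gprc6a, Gpr158 and Gpr37, were too low to be tested, as was Ptprv, the gene of the phosphatase OST-PTP that limits osteocalcin activity in osteoblasts. Ptprv was at 0.737, 0.469, 0.244 and 0.367 FPKM in the WT libraries and at 1.78, 1.06, 0.779 and 0.215 FPKM in those of LRP1 KO, and the groups overlapped because of library 4.

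The genes whose pattern over the 8 libraries was nearest to that of summed Bglap and Bglap2 were Trim30a, Ifi44, Zbp1, Usp18 and Adar, known as interferon-induced genes. Their distances, on standardized log2 values, were 0.237, 0.289, 0.300, 0.365 and 0.394, where 0 is an identical pattern and the median gene was at 3.83. Trim30a was at 7.10, 9.88, 11.3 and 10.2 FPKM in LRP1 KO, with library 1 lowest and library 3 highest as for osteocalcin, and at 2.68 to 3.25 FPKM in WT. The 8 values fall into separate groups, so the measure favours genes whose groups are far apart.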

How the data were processed

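RNA was measured in 8 libraries (4 LRP1 KO, 4 WT), grouped by sample title. The deposited values were taken to be FPKM, quantile normalized by the authors across libraries; how they were made is not stated in the file, and TPM is possible. The submitters' processing notes name TopHat2, Cufflinks and mm10, whereas the study's methods describe trimming with trimGalore, STAR alignment and featureCounts counts. Sorted values differed between libraries by a median of 0.575%. Depth, read counts and counting error are unknown, a broad shift would be hidden, and the top value is fixed.

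Log2(FPKM + 1) was fitted with limma 3.58.1 in R 4.3.3 with group as the term, a variance trend and Benjamini-Hochberg adjustment. Genes of at least 1 FPKM in at least 4 libraries were kept, also when a library was left out. The count test of the study could not be used. For single genes all 70 ways to choose the groups were enumerated in an exact permutation test, two-sided (scipy 1.17.1). Genes were matched by Ensembl identifier to GENCODE M21. The fit was tested on simulated data. A marker score is the mean log2(FPKM + 1) of its genes. Pathway lists and markers were written by hand. Some genes covered by the rules are not reported here. Members and lists were chosen with earlier results of these data known. Genes named are all members, Lrp1, neighbours within 100 kb, the list genes that passed or were at 0, and the 5 nearest patterns; other list genes, such as Gas6, Twist1 and Phospho1, were chosen after their values were seen. Alternatives changed the pseudocount, filter, scaling, variance trend, replicate block and marker covariates, or left out a library; for list genes they were chosen after seeing the data.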

Additional observations from a re-analysis of the deposited data

Results flagged for a closer look

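Of 21 groups of 4 values examined for a library far from the rest, 2 stood out, where chance gives about 1 in 20. Summed Bglap and Bglap2 in LRP1 KO had library 1 at 4.13 FPKM below the others, with a gap of 0.874 of the range on the log2 scale. That library also had the highest endothelial sum, 621 FPKM. Sp7 in WT was at 0 except in library 4, at 0.00362 FPKM, so the gap was 1 times the range, at a level too low to read.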

How the results depend on the processing

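The change of summed Bglap and Bglap2 kept its direction in all 16 alternatives, from 2.37 to 4.18, and passed in all but that with the macrophage score (2.58, adjusted p = 0.0781), where Bglap was at 1.72 and Bglap2 at 2.07. Lrp1 passed in all 16. Called genes (2-fold and adjusted p under 0.05) numbered 184, 275 with a pseudocount of 0.1, 94 with the endothelial score, 9 with the macrophage score and 133 to 339 without one library. The median SE was 0.216 with the macrophage score and 0.0880 without. With the replicate block 173 genes were called and 1013 instead of 1547 passed; the osteocalcin genes still passed, and Pcsk5 did not (adjusted p = 0.0650). Deviations of same-numbered libraries correlated at 0.158, 0.141 and 0.340 for numbers 1 to 3 and at -0.312 for number 4, so the rule that every pair exceed 0.1 was not met, and 2 of 4 WT libraries correlated best with their own number. The labels give no shared source. Passing genes numbered 9 with the macrophage score, 162 with the endothelial score and 512 to 3021 without one library, where the upper end came without LRP1 KO library 4. Of the 9 genes examined, 2 passed, 0 with the macrophage score and 2 to 4 without one library. Without LRP1 KO library 4, Mgp (-1.32) and Vkorc1 (-0.24) also passed. For Mgp the WT values were fixed by the normalization and had no spread, so its p-value cannot be read like the others.

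Mgp went from -0.99 to 0.00618 with the endothelial score. The other changes of sign were in estimates close to 0. Furin was 0.0134 with size factors, 0.00594 with the endothelial score, and -0.0569 to 0.0317 without one library (0.00578, 0.0317 and 0.0111 without WT 2, 3 and 4, and 0.00518 without LRP1 KO 2). Ggcx was -0.0265 to 0.0512 without one library (-0.0265 without WT 2, -0.0133 and -0.00693 without LRP1 KO 2 and 3). Alpl was -0.0726 to 0.00933 without one library (0.00933 without WT 3, and 0.00377 and 0.00455 without LRP1 KO 1 and 3). The cause was not tested. Depth is unknown, so values near 0 cannot be told from failed detection.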

Other observations

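F7, the gene for coagulation factor VII, a Gla protein below the level for testing, was at 0.113 to 0.225 FPKM in the WT libraries and at 0.476, 0.710, 0.643 and 0.821 FPKM in those of LRP1 KO. The groups did not overlap (exact permutation p = 0.0286, the smallest possible), as was the case upward for 8.84% of tested genes and in either direction for 19.6%. With no filter on low values F7 passed (log2 change 0.53, limma adjusted p = 0.00879). Sparc, a collagen-binding matrix protein, held ranks 8 to 11 in all libraries. Its 3 distinct values were the same in both groups, because the normalization gives each rank a set value. Its mean was 3400 FPKM in both groups.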
